A study of Sus scrofa with 6 samples.

Results

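GABA and glutamate are the main fast transmitters of the midbrain, and a small set of genes tells which one a neuron makes and packs. GAD1 and GAD2 encode the enzymes that make GABA from glutamate, SLC32A1 encodes the vesicular transporter that loads GABA (and glycine) into synaptic vesicles, and SLC17A6 and SLC17A7 encode the vesicular glutamate transporters VGLUT2 and VGLUT1. In the brainstem and midbrain VGLUT2 is the usual glutamate transporter, while VGLUT1 is best known from the cortex, and some midbrain dopaminergic neurons are known to carry VGLUT2 or GABA genes beside the dopamine pathway. These 5 genes, picked by symbol from the 30477 genes in the deposited tables, are described here in porcine midbrain-like organoids (pMLOs).

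The pMLOs were grown from a single line of porcine embryonic stem cells of IVF origin (IVF_1_ pESC_FIW) and carried no transgene or deletion that the labels name. All groups passed through embryoid bodies and the same sequence of factors, with SB431542, Noggin, SHH and CHIR99021 first, FGF8 from day 5, BDNF and ascorbic acid beside FGF8 before D11, then Matrigel embedding and a last medium with BDNF, GDNF, ascorbic acid, db-cAMP and DAPT and no FGF8 for the ages that reached it. The groups differed in age, and D11 organoids had reached neither the Matrigel nor the last medium, so that age, embedding and medium cannot be told apart between D11 and the later days. Organoids were taken on day 11 (D11), day 28 (D28) and day 45 (D45), with 2 droplet libraries a day called replicates A and B, so 6 libraries in all. Because 1 line was used, the spread between replicates does not cover differences between lines.

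Neurons were taken as cells with 1 or more UMI (unique molecular identifier, 1 captured mRNA molecule) of STMN2, a microtubule regulator of growing neurons. Of 102940 cells that passed the filters, 58579 met this rule, with 3940 and 7196 on D11, then 10693 and 9657 on D28 and finally 14474 and 12619 on D45 (A and B). They were 26.8% and 33.4% of the cells on D11 and 68.5% to 74.8% later, and held 45544129 to 94894278 UMIs a library, with a median of 3687.5 to 11281 UMIs a cell. The rule is loose. Among cells with 10 or more UMIs of fibroblast genes (COL1A1, COL1A2, COL3A1, LUM and DCN), 61.6% to 65.4% on D28 and D45 also had a STMN2 UMI, and 17.3% to 21.1% had 3 or more. In STMN2 cells the dopaminergic markers TH, DDC, SLC18A2, SLC6A3, NR4A2 and DRD2 summed to 99.3 to 230 UMIs per 1000000 UMIs (CPM), against 80.4 to 141 in cells without STMN2. The sum was higher in STMN2 cells in each library, for example 194 against 99.6 in D28 replicate B and 99.3 against 80.4 in D45 replicate A. Neural progenitor markers summed to 5876 and 5602 CPM in STMN2 cells on D11. On D28 they summed to 3714 and 3663 CPM and on D45 to 4489 and 5852. In cells without STMN2 the sums were 7283 and 6704, 5418 and 5600, and 7170 and 7766 CPM, higher in each library. Between 6 and 59 cell barcodes were shared by pairs of libraries among STMN2 cells, at most 0.487% of the smaller one.

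GAD1 lies on chromosome 15 (76991863-77034819, plus strand), GAD2 on chromosome 10 (49316682-49391013, minus strand), SLC32A1 on chromosome 17 (41689479-41694560, plus strand), SLC17A6 on chromosome 2 (37098983-37138935, minus strand) and SLC17A7 on chromosome 6 (54511121-54521616, minus strand) of Sscrofa11.1. No 2 of them share a chromosome. The 250 bases before the annotated RefSeq start of GAD2 and SLC17A6 are shown 5′ to 3′ on the gene's strand, since these genes, 1 of each transmitter, followed different courses. Capitals mark CANNTG, the core bound by bHLH factors such as NEUROD1.
GAD2: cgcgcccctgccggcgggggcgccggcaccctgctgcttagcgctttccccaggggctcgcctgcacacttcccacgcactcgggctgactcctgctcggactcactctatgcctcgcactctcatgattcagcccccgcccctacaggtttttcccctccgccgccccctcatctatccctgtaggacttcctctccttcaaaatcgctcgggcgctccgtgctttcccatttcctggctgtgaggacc
SLC17A6: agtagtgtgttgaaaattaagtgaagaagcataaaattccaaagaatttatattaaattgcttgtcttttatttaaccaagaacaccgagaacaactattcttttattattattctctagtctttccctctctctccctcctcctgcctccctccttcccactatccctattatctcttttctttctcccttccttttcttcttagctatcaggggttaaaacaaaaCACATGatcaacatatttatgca
These windows span chr10:49391014-49391263 and chr2:37138936-37139185. Of the 19556 protein-coding promoters of this length, 61.9% held at least 1 CANNTG, and not all members' windows are reported here, so that no contrast between the GABA and glutamate genes is read from it. TAATTA, a core bound by homeodomain factors such as the DLX proteins, and GATAAG, a core bound by GATA factors, were searched on both strands and found in neither window, against 3.73% and 4.88% of all promoters. The window of GAD2 was 65.2% G and C, that of SLC17A6 34.4%, and the median over all promoters was 57.6%.

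The first question was how the genes that make and load GABA changed as the organoids aged. All of them were low on D11, were high on D45, and on D28 were near the D11 level in replicate A but not in replicate B. GAD2 stood at 2.66 and 2.34 CPM in the D11 replicates A and B, at 4.38 and 61.6 on D28, and at 118 and 79.2 on D45. GAD1 stood at 0.417 and 0.431 CPM, then 1.01 and 13.1, then 58.7 and 35.8. SLC32A1 stood at 0.0878 and 0.293 CPM, then 0.239 and 2.37, then 8.50 and 5.74, where 3 UMIs came to 0.0659 CPM in D11 replicate A. For each of the 3 genes both D45 libraries lay above both D28 and both D11 libraries, and replicate A of D28 stood closer to D11 than to its own replicate.

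**Figure D1:**
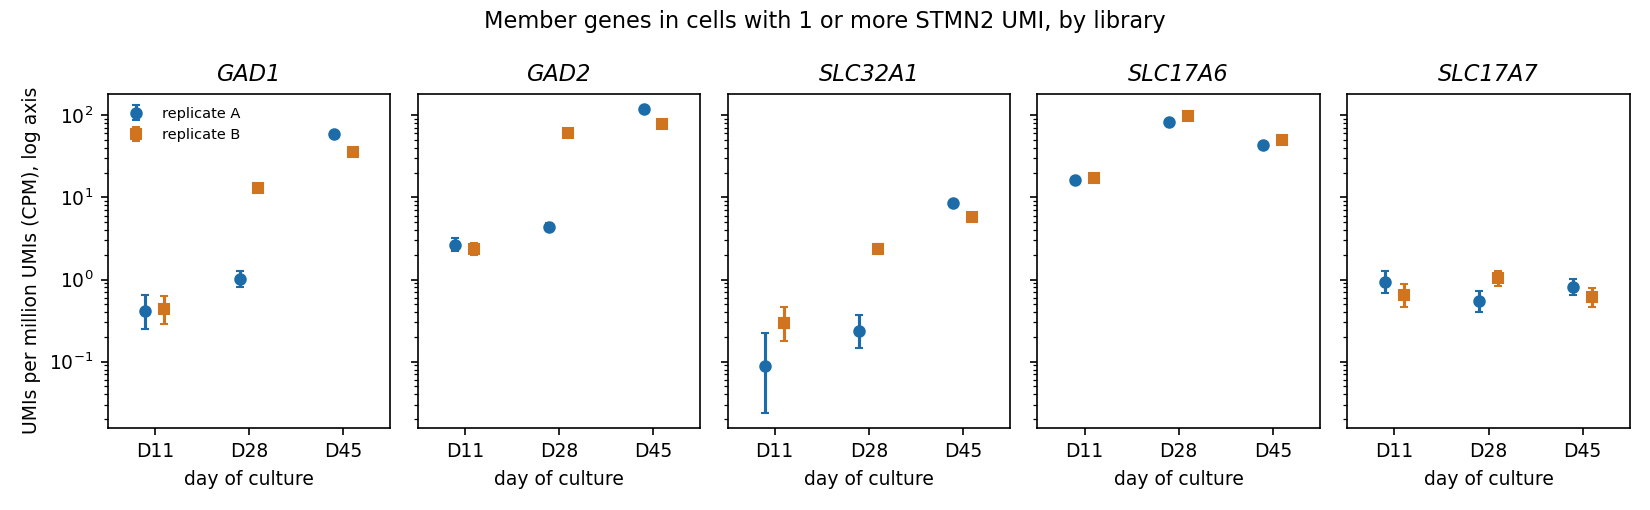
UMIs per 1000000 UMIs (CPM, log axis) of each gene in STMN2 cells of the 6 libraries, with exact 95% Poisson intervals that cover counting error only. GAD1, GAD2 and SLC32A1 separate D28 replicate A from replicate B, while SLC17A6 peaks in both D28 libraries and SLC17A7 stays between 0.549 and 1.04.

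These levels mix the share of cells that carry a gene with the number of UMIs in such a cell, and both differed. GAD2 was detected in 1.04% and 0.750% of STMN2 cells on D11, then in 1.84% and 12.6% on D28 and finally in 19.7% and 13.5% on D45, with 2.95 and 2.81, 1.86 and 4.56, and 3.84 and 4.42 UMIs in a cell that had any. GAD1 was detected in 0.355% and 0.264%, in 0.533% and 5.47%, and in 15.1% and 11.0%. SLC32A1 was detected in 0.0761% and 0.195%, in 0.140% and 1.84%, and in 4.28% and 3.34%, with no more than 1.36 UMIs in a cell that had any. Exact Clopper-Pearson 95% intervals ran from 1.60% to 2.12% for GAD2 in D28 replicate A and from 11.96% to 13.3% in replicate B.

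Detection also follows the depth of a cell and free RNA, so each STMN2 cell was thinned to 2000 UMIs and shallower cells (363 to 6043 a library) were left out. The GAD2 share was then 0.447% and 0.295% on D11, then 1.04% and 7.92% on D28 and finally 15.3% and 10.3% on D45. In fibroblast-gated cells without STMN2, which should lack the gene, the thinned share on D28 was 0.131% and 0.494% and on D45 1.06% and 0.701%. Unthinned, the fibroblast-gated cells gave 0.782% and 2.96% on D28 and 5.22% and 3.02% on D45, at a median of 13159 to 17791.5 UMIs a cell. The D28 and D45 shares in STMN2 cells all lay above this background, thinned or not, with the smallest margin in D28 replicate A. For GAD1 the thinned share was 10.3% and 7.01% on D45 against 0.424% and 0.40% in the fibroblast-gated cells. For SLC32A1 it was 1.81% and 1.23% on D45, and none of 472 and 999 fibroblast-gated cells held a UMI, which allows a share of up to 0.636% and 0.300%.

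In sums over STMN2 cells, D45 exceeded D11 by 6.48 ± 1.10 (SE) on the log2 scale for GAD1 (edgeR adjusted p = 0.00627), by 5.00 ± 1.03 for GAD2 (edgeR adjusted p = 0.0126) and by 4.83 ± 1.01 for SLC32A1 (edgeR adjusted p = 0.0134). All 5 members were among the 21391 genes tested, and 27.3% of all genes were called between D11 and D45, 14.2% of them all as rising, with a median change over all genes of 0.05. With 2 libraries a day an exact permutation test of a single gene cannot go below p = 0.333, so the p-values rest on the spread that edgeR estimates over all libraries. Leaving out 1 library leaves that day with a lone library that is assumed to vary like the others, and the 3 changes then ranged from 4.25 to 6.76. None passed without D11 replicate A (edgeR adjusted p = 0.0528, 0.0839 and 0.0912 for GAD1, GAD2 and SLC32A1) or without D11 replicate B (edgeR adjusted p = 0.0583, 0.0952 and 0.0621). GAD2 and SLC32A1 also missed the threshold without D45 replicate A (edgeR adjusted p = 0.0619 and 0.0679), and SLC32A1 without D45 replicate B (edgeR adjusted p = 0.0502).

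D28 could not be described by 1 value for these genes. The change from D11 to D28 was 3.75 ± 1.02 for GAD1 (edgeR adjusted p = 0.0473), 3.42 ± 0.96 for GAD2 (edgeR adjusted p = 0.0529) and 2.40 ± 0.97 for SLC32A1 (edgeR adjusted p = 0.136), where 8.6% of all genes rose, 7.47% fell and 16.1% were called in either direction. The step from D28 to D45 was 2.74 ± 0.88, 1.58 ± 0.87 and 2.43 ± 0.85, and passed for none of the 3 (edgeR adjusted p = 0.101, 0.268 and 0.120), where 6.15% of all genes were called and 3.4% rose. The 3 contrasts share their libraries and are not independent. Both steps depended on which D28 library was kept. Without replicate A the changes from D11 to D28 were 4.60, 4.29 and 3.19, and without replicate B they were 1.17, 0.74 and 0.15. The changes from D28 to D45 were 1.88, 0.71 and 1.61 without replicate A and 5.31, 4.26 and 4.66 without replicate B. The GAD1 call on D28 was also lost without either D11 library (edgeR adjusted p = 0.228 and 0.216) or either D45 library (edgeR adjusted p = 0.0906 and 0.0897), with the replicate letter as a block (edgeR adjusted p = 0.0896), and in cells with 3 or more STMN2 UMIs (edgeR adjusted p = 0.0830).

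The 2 D28 libraries were therefore set side by side, with no test, since each is 1 library. Replicate B exceeded replicate A 14.1-fold for GAD2 (5556 against 367 UMIs, 95% interval of the ratio 12.6 to 15.7 for counting error only), 12.9-fold for GAD1 (1184 against 85 UMIs, 10.4 to 16.3) and 9.93-fold for SLC32A1 (214 against 20 UMIs, 6.27 to 16.6). SLC17A6 differed 1.20-fold (8866 against 6851 UMIs, 1.16 to 1.24). SLC17A7 differed 1.90-fold (94 against 46 UMIs, 1.32 to 2.76). Among the members the gap was largest for the GABA genes, at nearly equal SLC17A6.

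On the other days the same genes differed far less between replicates. On D11 the ratio of B to A was 0.882 for GAD2 and 1.03 for GAD1, and SLC32A1, with 4 and 19 UMIs, gave 3.33 with an interval from 1.11 to 13.5. On D45 replicate A was the higher one, and the ratio was 0.671 for GAD2, 0.610 for GAD1 and 0.676 for SLC32A1, while SLC17A6 gave 1.17. Over all genes, with 0.5 CPM added to both libraries, 6.09% were at least 2-fold higher and 2.95% at least 2-fold lower in D28 replicate B, against 0.0187% and 0.0795% on D11 and 1.08% and 0.224% on D45. Of 21391 genes, 5 had a larger gap than GAD2 in either direction on D28 (LUM, OLIG1, DLX5 and ENSSSCG00000046983 and ENSSSCG00000042726, which have no symbol, all named after their values were seen), 20 a larger one than GAD1 and 156 a larger one than SLC32A1. Other cell types moved as well. Summed over STMN2 cells, the 5 fibroblast markers stood at 1025 CPM in replicate A and 336 in B, the 6 oligodendrocyte lineage markers at 39.7 and 84.1, and the 6 floor plate markers at 686 and 1080, while the 8 neuron markers (STMN2 among them) stood at 4168 and 3416, none of these markers being at 0. The part of these differences in the GABA gap was not tested. In cells with 3 or more STMN2 UMIs, a rule that 21.1% and 19.2% of the cells with 10 or more fibroblast-marker UMIs still met on D28, the gap was 14.1-fold for GAD2 and 13.5-fold for GAD1. Over all kept cells it was 12.5-fold for GAD2 and 11.08-fold for GAD1, and with called doublets removed 14.0-fold and 13.1-fold.

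**Figure D2:**
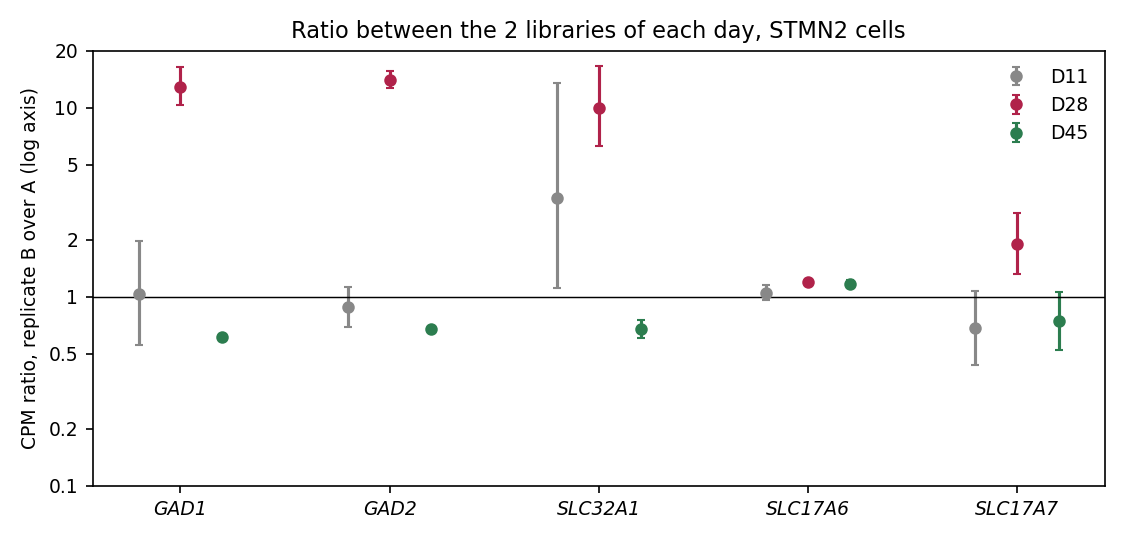
Ratio of CPM between replicate B and replicate A in STMN2 cells (log axis) for each gene and day, with exact 95% intervals for counting error only and a line at equality. The D28 ratios of GAD1, GAD2 and SLC32A1 lie between 9.93 and 14.1, and no other ratio exceeds 3.33.

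The vesicular glutamate transporter SLC17A6 followed another course, with a rise to D28 and a fall to D45 on which the replicates stood close together. It stood at 16.4 and 17.3 CPM on D11, then at 81.8 and 98.2 on D28 and finally at 43.0 and 50.3 on D45, and the 3 days did not overlap. It was detected in 6.17% and 4.84% of STMN2 cells on D11, then in 28.3% and 28.9% on D28 and finally in 12.9% and 15.7% on D45. Thinned to 2000 UMIs the shares were 3.22% and 3.29%, 17.7% and 17.0%, and 7.46% and 9.01%, against 0.261% and 0.741% in the fibroblast-gated cells of D28 and 0.847% and 1.5% in those of D45. D28 exceeded D11 by 2.23 ± 0.18 on the log2 scale (edgeR adjusted p = 0.00102), a rise that passed under every alternative tried. D45 exceeded D11 by 1.17 ± 0.18 (edgeR adjusted p = 0.00381) and fell by 1.06 ± 0.17 from D28 (edgeR adjusted p = 0.0221), where 2.75% of all genes fell.

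The later comparisons of SLC17A6 were less secure. The excess of D45 over D11 missed the threshold without D11 replicate A (edgeR adjusted p = 0.0652) or B (edgeR adjusted p = 0.0511), and was 0.46 in cells with 3 or more STMN2 UMIs (edgeR adjusted p = 0.153) and 0.34 in cells with at least 3 of 6 neuron genes (edgeR adjusted p = 0.315). The fall from D28 to D45 missed the threshold without D11 replicate A (edgeR adjusted p = 0.0799), D11 replicate B (edgeR adjusted p = 0.0795), D45 replicate A (edgeR adjusted p = 0.206) or D45 replicate B (edgeR adjusted p = 0.117), and with the replicate letter as a block (edgeR adjusted p = 0.0592). Its size then ran from -1.20 to -0.88.

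SLC17A7, the cortical type of glutamate transporter, was low throughout. It stood at 0.944 and 0.647 CPM on D11, then 0.549 and 1.04 on D28 and finally 0.819 and 0.611 on D45, and the days overlapped. Its share was 0.402% to 0.990% of STMN2 cells, with 1.04 to 1.11 UMIs in a cell that had any. Fibroblast-gated cells, which are deeper, gave 0.522% to 3.69% on D28 and D45, and cells with none of 6 neuron genes gave 0.0522% to 0.807%, so that the share is read as background. None of its 3 changes passed, with values of -0.20, -0.44 and -0.24 (edgeR adjusted p = 0.759, 0.425 and 0.695 for D28 against D11, D45 against D11 and D45 against D28).

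The members were next read together within a cell. Cells with UMIs of GAD1, GAD2 or SLC32A1 and none of SLC17A6 or SLC17A7 (GABA-class cells) numbered 41 and 51 on D11, then 155 and 1098 on D28 and finally 3322 and 1961 on D45. Cells with SLC17A6 or SLC17A7 only (glutamate-class cells) numbered 270 and 376, then 2976 and 2629, then 1416 and 1730. SLC17A6 was found in 243 and 348 STMN2 cells on D11. Some glutamate-class cells of that day thus rested on SLC17A7 alone, whose share is read as background. Of the cells with 1 kind only, 13.2% and 11.9% were GABA-class on D11, then 4.95% and 29.5% on D28 and finally 70.1% and 53.1% on D45. Both kinds were found in 0.102% and 0.111% of STMN2 cells on D11, then 0.832% and 2.46% on D28 and finally 3.52% and 2.32% on D45, and 58.9% to 94.0% had neither. By this count glutamate-class cells outnumbered GABA-class cells in 4 libraries, and GABA-class cells outnumbered glutamate-class cells in both D45 libraries. The classes rest on 3 GABA and 2 glutamate genes, and capture differs between genes, so the counts do not give the true balance. The difference between the D28 replicates came from the GABA side.

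**Figure D3:**
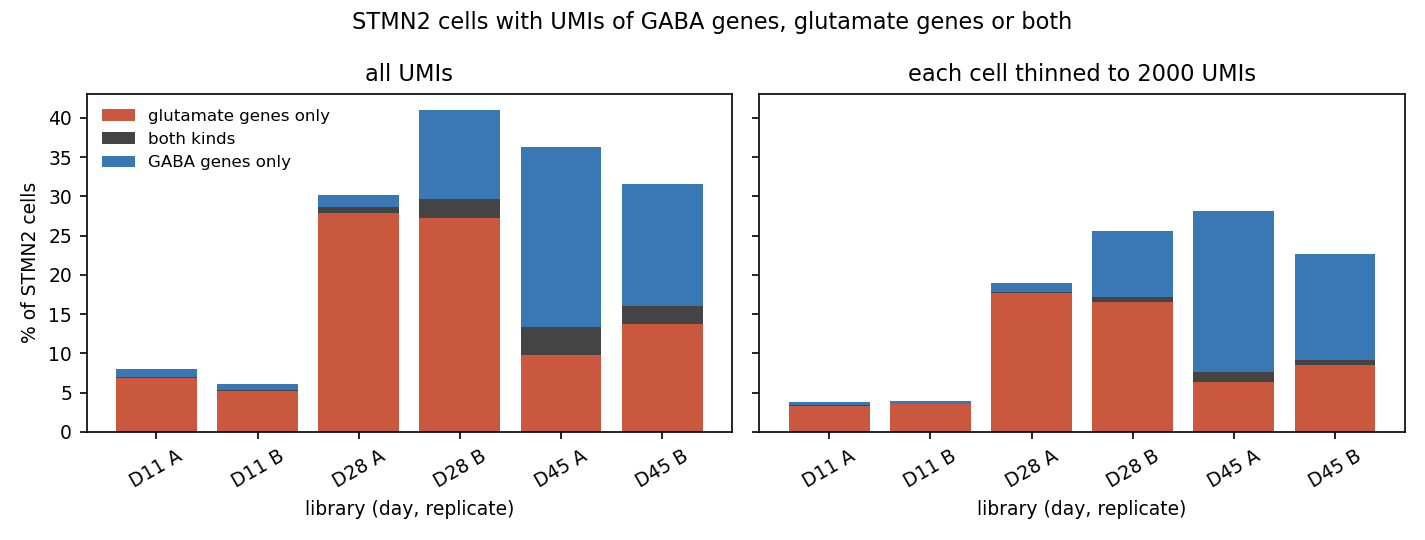
Percent of STMN2 cells with glutamate genes only, both kinds or GABA genes only in each library, with all UMIs (left) and with each cell thinned to 2000 UMIs (right). GABA-only cells make up 1.45% of D28 replicate A and 11.4% of replicate B with all UMIs, and 23.0% and 15.5% of the D45 libraries.

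The GABA genes were found in the same cells more often than their separate shares would give. GAD1 and GAD2 were found together in 439 cells of D28 replicate B, where 66.6 were expected if detection were independent (ratio 6.59), and in 1318 and 900 cells on D45 (ratios 3.07 and 4.79). Of the GAD1 cells, 83.1% in D28 replicate B and 60.4% and 64.6% on D45 also had GAD2. Of the SLC32A1 cells, 81.5% in D28 replicate B and 70.6% and 77.0% on D45 had GAD2, and 55.6%, 64.0% and 69.6% had GAD1. In D28 replicate A, where GAD1 was found in 57 cells, 29.8% of them also had GAD2 (17 cells, 1.05 expected). Thinned to 2000 UMIs the ratio for GAD1 and GAD2 was 8.37, 2.82 and 4.85 in D28 replicate B and the D45 replicates. These ratios describe cells within a library, which are not replicates, and unequal depth between cells raises any such ratio.

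GABA and glutamate genes met in fewer cells than expected in some libraries and in more in others, and the result depended on depth. On D11 few cells had both, 4 in replicate A (3.13 expected, ratio 1.28 with a counting interval of 0.348 to 3.27) and 8 in replicate B (3.15 expected, 2.54 and 1.10 to 5.01). Cells with both kinds numbered 89 in D28 replicate A (69.9 expected, ratio 1.27 with a counting interval of 1.02 to 1.57), 238 in D28 replicate B (397 expected, 0.600 and 0.526 to 0.681), 510 in D45 replicate A (510 expected, 1.00 and 0.915 to 1.09) and 293 in D45 replicate B (361 expected, 0.811 and 0.721 to 0.909). Thinned to 2000 UMIs the ratios were 0.744, 0.384, 0.724 and 0.509. With 2 or more UMIs required of a kind they were 1.81, 0.281, 0.732 and 0.357. D28 replicate B and D45 replicate B lay below 1 in all 3 readings, D45 replicate A in both stricter ones, and D28 replicate A, with few GABA-gene cells, had no steady direction. On D28 and D45, 3.92% to 4.49% of cells with both kinds were called as doublets, against 3.87% to 6.59% of cells with 1 kind. Cells with both kinds had the highest median depth of the classes in each of these libraries. In D45 replicate A it was 8986 UMIs, against 6699.5 in GABA-class and 7729 in glutamate-class cells. The part of doublets in the cells with both kinds was not tested.

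The SLC17A6 level was lower in cells with 5 or more GABA-gene UMIs than in cells with none in all 4 later libraries, and the share of cells with SLC17A6 in 3 of them, but the course between was not graded on D45. In D28 replicate B the SLC17A6 level was 106 CPM in cells with no GABA-gene UMI, 89.6 with 1, 48.0 with 2, 49.3 with 3 to 4 and 15.6 with 5 or more. In D45 replicate A the level was 47.6 CPM in cells with none, 53.3 with 1, 36.5 with 2, 31.9 with 3 to 4 and 14.5 with 5 or more. In D45 replicate B it was 54.8, 56.1, 38.5, 20.2 and 12.3, so that in both D45 libraries cells with 1 GABA-gene UMI stood no lower than cells with none. In D28 replicate A only 16 cells had 5 or more, where the level was 81.4 CPM in cells with none and 45.8 in those 16, while the share with SLC17A6 was 28.2% and 37.5%. The share of cells with SLC17A6 fell from 30.8% (29.8% to 31.8%, Clopper-Pearson) to 8.71% (6.35% to 11.6%) in D28 replicate B, from 12.9% to 9.58% in D45 replicate A and from 16.4% to 7.90% in D45 replicate B between the end groups (14.9% and 18.2% with 1 UMI on D45), although the cells with 5 or more were deeper on D45. At 2000 UMIs a cell, SLC17A6 was found in 3.32%, 3.05% and 2.04% of the cells with 5 or more GABA-gene UMIs in those 3 libraries. That lay below the 18.6%, 8.26% and 10.1% of cells with none and above or near the 0.741%, 0.847% and 1.5% of fibroblast-gated cells. In D28 replicate A it was found in 3 of the 16 cells (18.8%), against 17.8% of cells with none.

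**Figure D4:**
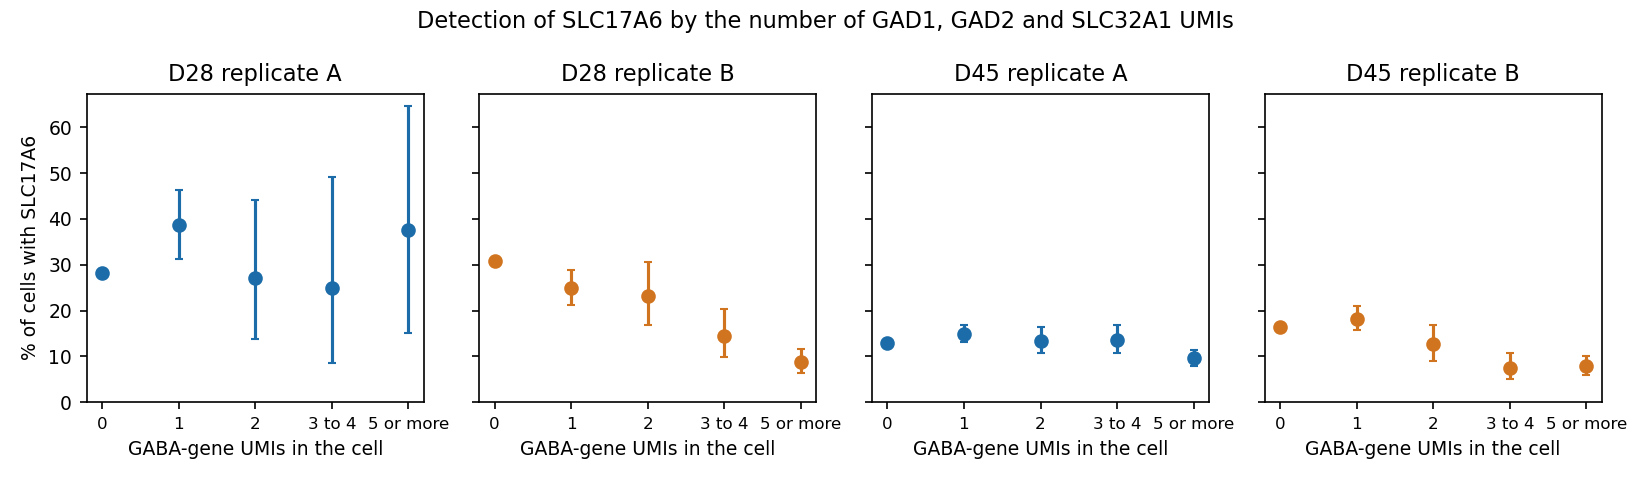
Percent of STMN2 cells with SLC17A6 (Clopper-Pearson 95% intervals) against the number of GAD1, GAD2 and SLC32A1 UMIs in the cell, for the 4 libraries of D28 and D45. The share is lower at 5 or more UMIs than at 0 in D28 replicate B and both D45 libraries, the D45 shares are higher at 1 UMI than at 0, and the intervals of D28 replicate A are wide.

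What else set cells with GABA genes apart from cells with glutamate genes was tested over the 6 libraries, with both classes summed within each library and library as a block. Of 16899 genes, 152 were higher in GABA-class cells (0.899%) and 363 lower (2.15%), 3.05% in all, with a median difference of -0.02. Taken by day, 3.23% of genes differed between the classes on D11, 3.12% on D28 and 3.09% on D45. The 8 neuron markers summed to 4957, 6009, 5303, 4652, 3332 and 4085 CPM in the GABA class, by age and replicate A before B. In the glutamate class they summed to 7038, 7912, 8047, 5730, 4744 and 5150 CPM, higher in every library. The part of these markers in the class differences was not tested. The called number was 289 without D45 replicate A and 333 without D28 replicate B. The 5 largest rises with 1 sign in every library were all homeodomain factors of forebrain GABA neurons. DLX5 stood at 41.2, 24.4, 69.7, 202, 114 and 151 CPM in the GABA class (in order of age, replicate A before replicate B) and at 0 to 1.38 in the glutamate class, a difference of 7.10 ± 0.19 (edgeR adjusted p = 6.21e-11). DLX6 differed by 6.82 ± 0.32, DLX1 by 6.10 ± 0.32 and DLX2 by 6.02 ± 0.34. LHX6, which acts in interneurons of the medial ganglionic eminence, differed by 5.42 ± 0.34. Each was higher in 6 of 6 libraries (edgeR adjusted p from 2.04e-08 to 3.85e-07). DLX2 rested on few UMIs on D11 and in D28 replicate A, at 2.17, 3.25 and 0.840 CPM in the GABA class and 0 in the glutamate class. LHX6 did so too, at 8.67, 1.62 and 4.20 CPM in the GABA class, and DLX6 on D11, at 4.33 and 6.50 CPM.

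Of the 14 tested genes in the list of GABA fate factors, 9 were higher, 2 lower (LHX1 and LHX5) and 3 did not pass, with a median difference of 2.67. TAL1, a partner of GATA factors in midbrain GABA neurons, was among the 9, but no glutamate-class library held a UMI of it, so it carries no fold change, and in DESeq2 it did not pass (adjusted p = 0.490). The share of GABA-class cells with a DLX gene and no GATA2, GATA3 or TAL1 was 17.1% and 11.8% on D11, then 25.2% and 50.8% on D28 and finally 38.3% and 52.7% on D45. The share with GATA2, GATA3 or TAL1, which specify GABA neurons of the midbrain, and no DLX gene was 22.0% and 39.2%, then 4.52% and 9.74%, then 1.38% and 1.07%. Of glutamate-class cells, 0% to 4.03% had a DLX gene alone, and 0.605% to 2.93% had GATA2, GATA3 or TAL1 alone. On D45 the latter share was 1.13% and 2.14%, above the GABA-class share in replicate B.

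In the list of glutamate fate factors 15 of 19 tested genes were lower in GABA-class cells, none was higher and 4 did not pass, with a median of -2.11. SIM1, a hypothalamic and midbrain bHLH-PAS factor, stood at 19.5, 8.12, 4.20, 10.0, 2.91 and 1.72 CPM in the GABA class and at 303, 273, 14.9, 99.4, 49.4 and 43.6 in the glutamate class, a difference of -3.95 ± 0.20 (edgeR adjusted p = 3.68e-08). NEUROD1, a proneural factor, differed by -3.60 ± 0.29 (edgeR adjusted p = 5.76e-06). BARHL1 differed by -3.73 ± 0.30, NEUROD6 by -4.07 ± 0.45 and TBR1, a cortical factor, by -2.90 ± 0.53 (edgeR adjusted p = 1.19e-05, 0.000327 and 0.0109), and in DESeq2 NEUROD6 missed the threshold (adjusted p = 0.0934) and TBR1, at -1.51, got no adjusted p and was not called. The peptide gene ADCYAP1 (-3.17 ± 0.21) and IRX6 (-3.22 ± 0.58), of neither list, were among the 5 largest falls with 1 sign in every library (edgeR adjusted p = 7.35e-07 and 0.00704). IRX6 missed the threshold without D28 replicate B (edgeR adjusted p = 0.0522) and with cells thinned to 2000 UMIs, a fit without the D11 libraries (edgeR adjusted p = 0.624).

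**Figure D5:**
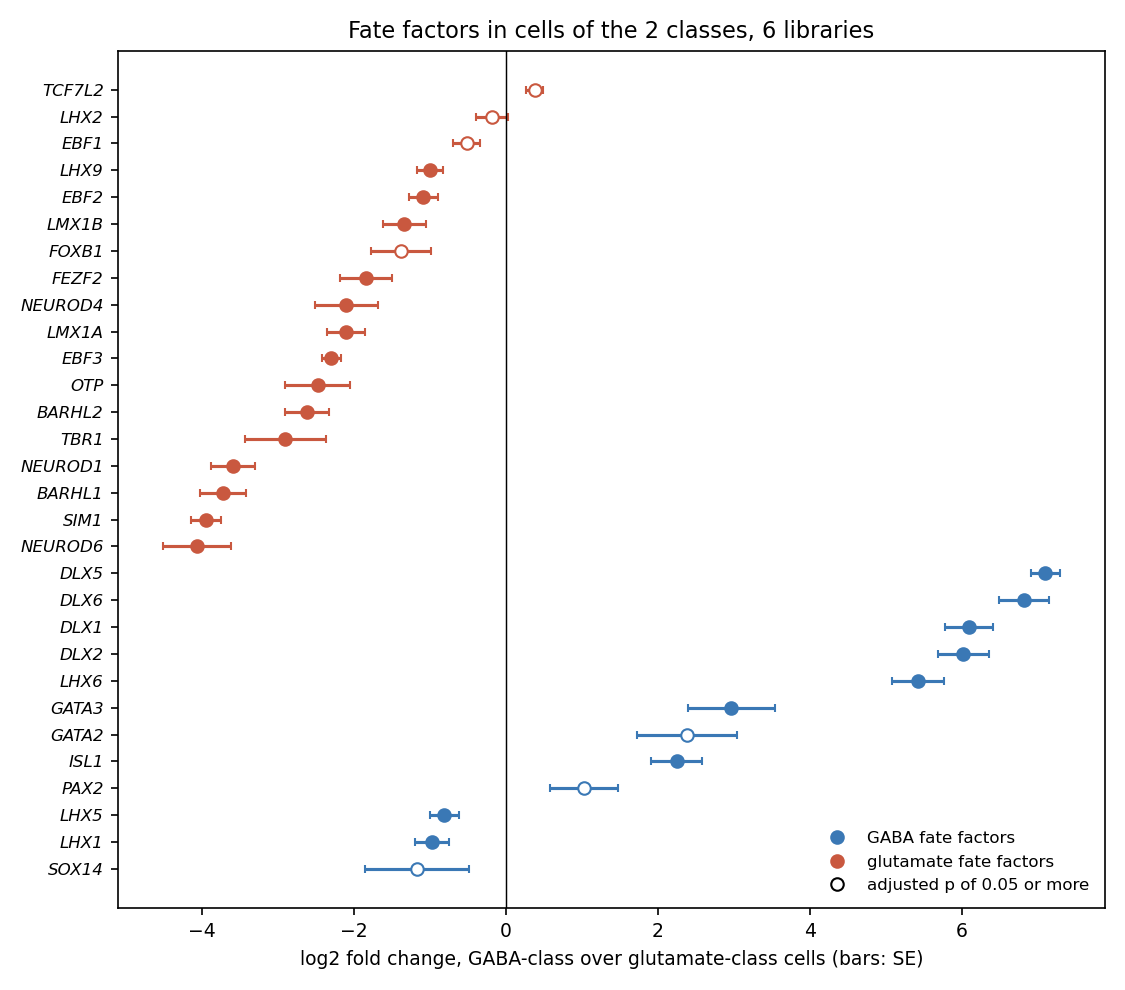
Log2 fold change between GABA-class and glutamate-class cells (bars, SE of the edgeR fit over 6 libraries) for tested genes of both fate factor lists, with some genes not drawn, TAL1 among them because it had no UMI in the glutamate class. The DLX genes and LHX6 lie at 5.42 to 7.10, and the glutamate fate factors drawn lie below 0 except TCF7L2.

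Genes that handle the transmitters were called in 4 of 15 cases, against 3.05% of all genes, and the called differences were under 1 on the log2 scale. Of 5 tested genes of GABA handling, 1 was higher and 1 lower, the latter SLC6A11, a mostly glial GABA uptake transporter (-0.81 ± 0.15, edgeR adjusted p = 0.00996). Of 10 tested genes of glutamate handling, the uptake transporters SLC1A2 (-0.61 ± 0.11) and SLC1A3 (-0.68 ± 0.13) were lower, and none was higher (edgeR adjusted p = 0.00748 and 0.00866). These 2 and SLC6A11 are known from astrocytes, and the summed astrocyte markers, of which SLC1A3 is one, stood at 4.33, 8.12, 22.7, 33.3, 157 and 201 CPM in the GABA class and at 6.99, 7.68, 37.8, 59.0, 276 and 274 in the glutamate class. Their part in the difference was not tested. SLC6A11 and SLC1A3 missed the threshold without D28 replicate B (edgeR adjusted p = 0.0664 and 0.0725) and with cells thinned to 2000 UMIs (-0.55 and -0.29, edgeR adjusted p = 0.129 and 0.619), and SLC1A3 also with 2 or more UMIs required of a class (-0.35, edgeR adjusted p = 0.391). Of 11 genes of other transmitters, SLC5A7, the choline uptake transporter, was higher by 1.23 ± 0.18 and SLC18A2, the vesicular monoamine transporter, by 1.45 ± 0.22 (edgeR adjusted p = 0.00130 and 0.00232), each in 6 of 6 libraries. SLC5A7 missed the threshold with 2 or more UMIs required of a class (edgeR adjusted p = 0.217) and thinned to 2000 UMIs (edgeR adjusted p = 0.258). These settings, here and for SLC6A11 and SLC1A3, held 5 and 4 libraries. D11 replicate A, and when thinned also D11 replicate B, had too few GABA-class cells. On D11 SLC5A7 stood at 175.5 and 183.5 CPM in the GABA class and 92.3 and 75.4 in the glutamate class. On D28 and D45 it stood at 0.662 to 15.6 CPM in the GABA class. TH, the rate-limiting enzyme of dopamine synthesis, did not pass (0.21 ± 0.11, edgeR adjusted p = 0.431). Of 10 genes in a list of GABA neuron peptides and proteins RELN alone passed (0.86 ± 0.17, edgeR adjusted p = 0.0111), and none of the neuropeptide or calcium-binding genes did. RELN missed the threshold without D28 replicate B or D45 replicate B (edgeR adjusted p = 0.0598 and 0.104).

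Between days, over all STMN2 cells, some genes of each list passed and most of the handling genes did not. From D11 to D45, 2 of 6 GABA handling genes rose (SLC6A11 by 3.87 ± 0.34, edgeR adjusted p = 0.000617) and none fell, with a list median of 0.69. Of 10 glutamate handling genes 3 rose, SLC1A3 by 4.08 ± 0.26, SLC1A1 by 2.35 ± 0.20 and SLC1A2 by 1.33 ± 0.18 (edgeR adjusted p = 0.000232, 0.000522 and 0.00257), and SLC38A2 fell by 1.21 ± 0.30 (edgeR adjusted p = 0.0237). The summed astrocyte markers stood at 31.9 and 30.3 CPM on D11 and 368 and 427 on D45 in the same cells, and their part was not tested. Among 14 genes of other transmitters 4 rose and 4 fell. SLC5A7 stood at 277 and 229 CPM on D11, then 1.73 and 9.22 on D28 and finally 0.916 and 1.03 on D45, a fall of -8.31 ± 0.76 from D11 to D45 (edgeR adjusted p = 0.000671). CHAT, the enzyme that makes acetylcholine, and SLC18A3, its vesicular transporter, fell as well (-5.25 ± 0.43 and -3.72 ± 0.66, edgeR adjusted p = 0.000481 and 0.00745). Of 16 tested GABA fate factors 6 rose and 3 fell (LHX5 and ISL1 among them), of 23 glutamate fate factors 6 rose and 4 fell, and of 10 GABA neuron peptide and protein genes 9 rose and none fell, against 14.2% of all genes that rose and 13% that fell.

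Genes whose level followed the members across single STMN2 cells were ranked by the median of Pearson's r over the 4 libraries of D28 and D45, among 11385 genes detected in at least 1% of the cells of each. The values describe cells that share a library and depth, and carry no test. Closest to GAD1 were GAD2 (0.42), NRXN3, a presynaptic adhesion molecule (0.38), and GRIN2B, an NMDA receptor subunit (0.18). Closest to GAD2 were NRXN3 (0.45), SGIP1 (0.23) and FGF14 (0.22), GAD1 itself being under 1% in D28 replicate A and so not ranked. Closest to SLC32A1 among the ranked genes were GAD2 (0.25), NRXN3 (0.17) and NSG2 (0.12). GAD1, again not ranked, gave 0.138 and 0.265 with SLC32A1 on D28 and 0.186 and 0.256 on D45. In D28 replicate A the correlation of GAD1 with GAD2 was 0.15 and that of GAD2 with NRXN3 0.072, below every other library. Closest to SLC17A6 were CACNA2D1, a calcium channel subunit (0.33), and ANK3, an ankyrin of the axon initial segment (0.30). For SLC17A7 the highest value was 0.056 (CTSV), too weak to read as a pattern.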

How the data were processed

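Single-cell libraries were made with a droplet 3′ kit, and the authors counted UMIs per gene and cell with Cell Ranger 8.0.1 (per the file headers) on Sscrofa11.1. The deposited counts are whole UMIs, not normalized, in 104820 barcodes of 6 libraries. The study calls the replicates biological duplicates, but neither it nor the labels say whether they came from separate cultures, so p-values measure only the spread between these samples.

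Cells with 200 to 7000 genes and at most 10% mitochondrial UMIs were kept (102940). Levels are UMIs per 1000000 UMIs summed over cells and are not compared between genes, since 3′ counts carry no length correction and capture differs. Sums over STMN2 cells were tested between days, and sums over GABA-class and glutamate-class cells (20 or more cells a class) with library as a block, by edgeR 4.0.16 quasi-likelihood in R 4.3.3 with Benjamini-Hochberg adjustment at 0.05, on all genes that passed the filter on low counts. DESeq2 1.42.0, other cell rules, thinning to 1000, 2000 or 4000 UMIs, doublet removal and leaving out each library were alternatives. For the classes, the rule of 20 cells left 5 libraries with 2 or more UMIs required of a class. Thinned to 2000 UMIs it left 4, and the libraries lost were all of D11. Intervals (95%, exact Poisson, binomial or Clopper-Pearson) cover counting error only. Doublets were scored with scanpy 1.11.5 at 0.4% per 1000 cells and kept in the main analysis. The scripts were tested on simulated data.

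Of 30477 genes, 16266 carry a symbol in the files and 844 more through the reference. Some results of listed genes are not reported here. Named genes were the members, list genes that passed or served as examples (largest change first, at most 6 a list), and the 5 largest class differences each way with 1 sign in every library. The members and lists were chosen with earlier results of these data known. The class difference by day was added after seeing the data.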

Additional observations from a re-analysis of the deposited data

Results flagged for a closer look

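The difference between GABA-class and glutamate-class cells was not the same on D28 and D45 for 6 of 72 genes. The edgeR interaction test was chosen after seeing the data, and in it 0.686% of 16899 genes passed. The 72 were the tested list genes with IRX6, ADCYAP1 and NRXN3, which are of no list and were added from these same data. GATA3 stood at 76.4 and 100 CPM in the GABA class on D28 against 2.34 and 10.6 in the glutamate class, and at 3.24 and 2.85 against 2.18 and 3.78 on D45. Its difference was 3.85 on D28 and 0.04 on D45 (edgeR adjusted p = 9.46e-06 for the change). SOX14 went from 1.11 to -2.73 (edgeR adjusted p = 0.000838), with 1.68 (a few UMIs) and 10.5 CPM in the GABA class on D28 and 2.42 and 0.529 on D45. In the glutamate class SOX14 stood at 0.0793 (a few UMIs) and 5.32 CPM on D28 and at 10.3 and 8.89 on D45.

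CCK went from 1.61 to -0.73 (edgeR adjusted p = 0.00536), and the D28 libraries differed widely in the GABA class, at 398 CPM in replicate A and 15.6 in B. PENK went from 1.58 to 0.07 (edgeR adjusted p = 0.0177). DLX6 was higher in the GABA class on both days, by 7.91 and 5.54 (edgeR adjusted p = 0.0356). VIP (edgeR adjusted p = 0.0176) had no UMI in the GABA class on D28, so no fold is given, and on D45 it stood at 0.0819 CPM, a few UMIs, in replicate A and 7.08 in replicate B.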

How the results depend on the processing

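Counts of genes past the threshold moved most. With the replicate letter as a block, 2019 genes passed for D28 against D11 and 344 for D45 against D28. For D45 against D28, DESeq2 called 3395 and the rule of 3 STMN2 UMIs 572. Leaving out 1 library gave 615 to 8509 genes for D28 against D11, 1548 to 10256 for D45 against D11, 0 to 8882 for D45 against D28, and 289 to 457 between the classes, and without the filter on low counts the classes differed in 1153 genes. The letters did not pair the libraries (correlation of deviations -0.46, 0.18 and -0.32 between days).

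GAD1 from D11 to D28 was 3.43 with the replicate block, 3.13 with 3 STMN2 UMIs and 3.24 with 3 of 6 neuron genes, no longer past the threshold. GAD2 from D11 to D28 passed in DESeq2 (3.401), without the filter on low counts (3.42) and thinned (3.52). SLC17A6 from D11 to D45 was 0.46 and 0.34 under the stricter neuron rules, and from D28 to D45 -1.06 with the replicate block, all short of the threshold. SLC17A7 from D28 to D45 turned to 0.22 with 3 STMN2 UMIs and 0.010 thinned. Leaving out 1 library, the changes for D28 against D11, D45 against D11 and D45 against D28 ran from 1.17 to 4.60, 6.14 to 6.76 and 1.88 to 5.31 for GAD1, from 0.74 to 4.29, 4.74 to 5.22 and 0.71 to 4.26 for GAD2, from 0.15 to 3.63, 4.25 to 6.06 and 1.61 to 4.66 for SLC32A1, from 2.14 to 2.31, 1.00 to 1.33 and -1.20 to -0.88 for SLC17A6, and from -0.59 to 0.07, -0.66 to -0.20 and -0.51 to 0.15 for SLC17A7. SLC17A7 turned to 0.032 without D11 replicate A and 0.074 without D28 replicate A between D11 and D28.

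The D28 ratio of B to A was 9.33 thinned for GAD1, 12.5 over all kept cells for GAD2, 45.8 thinned for SLC32A1 (1 against 50 UMIs, too few to read as a ratio), and 1.10 over all kept cells and 1.09 thinned for SLC17A6. Shares followed depth and the cell rule. The mean GAD2 share on D45, 16.6%, became 24.9% with 3 STMN2 UMIs, 9.58% with 2 UMIs required and 8.19% thinned to 1000. That of SLC17A6 on D28, 28.6%, became 43.8%, 16.9% and, thinned to 1000, 2000 and 4000, 10.3%, 17.4% and 24.5%. On D45, 14.3% became 22.9%, 6.63% and, thinned to 1000 and 2000, 5.04% and 8.24%. The ratio of cells with both kinds to the number expected, thinned to 1000 and 2000, with 2 UMIs required and with 3 STMN2 UMIs, was 0.902, 0.744, 1.81 and 0.893 in D28 replicate A, 0.327, 0.384, 0.281 and 0.459 in D28 replicate B, 0.681, 0.724, 0.732 and 0.773 in D45 replicate A, and 0.331, 0.509, 0.357 and 0.614 in D45 replicate B. Thinned to 4000 it was 1.11, 0.522, 0.745 and 0.5003 in the same order. Beyond what the rules themselves remove, the cause of these shifts was not tested.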

Other observations

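Cells with a UMI of TH numbered 540 and 679 among the STMN2 cells of D11, 1520 and 1518 among those of D28, and 1043 and 1716 among those of D45. GAD2 was found in 1.85% and 1.03% of the D11 cells, 2.89% and 23.3% of the D28 cells, and 40.9% and 25% of the D45 cells. The same shares in all STMN2 cells without a TH UMI were 0.912% and 0.721%, 1.67% and 10.6%, and 18.0% and 11.7%. SLC17A6 was found in 8.70% and 7.07% of TH cells on D11, in 39.2% and 41.6% of those of D28 and in 17.0% and 19.5% of those of D45, against 5.76% and 4.60%, 26.5% and 26.6%, and 12.6% and 15.1% of the cells without TH. These shares are not thinned, so that depth may differ between the cells compared, and carry no test.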
